A study of Mus musculus with 54 samples.

Results

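The 35 genes described here mark leukocyte lineages: 12 T cell genes, 14 B cell genes and 9 genes of myeloid cells or of leukocytes in general. They were chosen by name among 20661 autosomal protein-coding genes, with earlier results of these data known. The aim was to ask whether capture of methylated DNA at immune genes shows how much leukocyte DNA a piece of intestine contains. Every 250 bp window that overlaps one of these genes, from 1 kb before to 1 kb after the gene body in mm10, was taken from all libraries of methylated DNA. That gave 5708 of the 10535096 windows of the table, 845 at T cell genes, 3802 at B cell genes and 1061 at myeloid genes. Cd3d and Cd3g lie head to head and share 3 windows.

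By MeDIP, in which an antibody to 5-methylcytosine pulls methylated fragments out of sheared DNA, 46 libraries of mouse intestine were sequenced from animals aged 15 to 19 weeks. B6 (C57BL/6) gave 5 adenomas and 3 normal mucosa samples of Apc Min animals, and 4 mucosa samples of wild type animals. The F1 of C57BL/6 and PWD/Ph (B6xPWD), the strain with a PWD chromosome 5 on a B6 genome (C5) and its F1 with B6 (C5F1) gave 3 libraries of each of the same 3 tissues. C1_5F1, the F1 of B6 with a strain that has PWD chromosomes 1 and 5, gave 2 adenomas and 2 normal samples of Apc Min mice, and PWD (PWD/Ph) gave 3 wild type samples. None of the 35 genes is on chromosome 5, so they lie on B6 chromosomes in B6, C5 and C5F1. Cd28, Zap70, Cr2 and Ptprc are on chromosome 1, of which C1_5F1 has 1 B6 and 1 PWD copy by its label.

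Apc Min mice form intestinal adenomas, and the Min allele is carried by all adenoma and normal samples called Apc Min here. The labels name no animals, so p-values measure the spread between samples. No RNA was measured, so the cell makeup of a tissue could not be checked from expression of its markers. In a bulk sample, fewer cells of a type and a different methylation per cell cannot be told apart. Library totals ran from 8358806 to 27842607 counts, and the lowest belonged to a C1_5F1 adenoma (5_4). No pair of libraries held identical counts. The first number of a sample label (11 in 11_5) recurs across groups, and the labels do not say what it stands for. 11 libraries have the number 16, and CpG-dense windows took 4.03% to 5.94% of their counts, against 5.11% to 7.74% in the 35 others. One input library, of the B6xPWD adenoma sample 11_5, had counts.

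Methyl groups on cytosines of CpG dinucleotides are inherited through cell division, and regulatory DNA of lineage genes is often less methylated in the cells that use it. T cells carry an antigen receptor whose CD3 chains signal through the kinases Lck and Zap70. B cells signal through Cd79a and Cd79b, and myeloid differentiation depends on the factor Spi1 and the receptor Csf1r. The intestinal mucosa holds many of these cells among and under its epithelium. MeDIP captures fragments with methylated CpGs, so capture depends on both the number of CpGs and their methylation.

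The 250 bases upstream of 5 of the annotated starts show how few or many CpGs capture can act on at these genes. They were taken from RefSeq (GRCm38.p6, the build of mm10), are written 5′ to 3′ on the gene's strand, and have each CpG in capitals. Cd3d is shown because its start differed between PWD and B6, and Lck, Cd79a, Cd37 and Coro1a because their starts were low in the B6xPWD adenoma library 11_5. They lie at chr9:44981536-44981785 (Cd3d, plus strand), chr4:129573642-129573891 (Lck, minus strand), chr7:24897247-24897496 (Cd79a, plus strand), chr7:45238840-45239089 (Cd37, minus strand) and chr7:126704817-126705066 (Coro1a, minus strand).
Cd3d: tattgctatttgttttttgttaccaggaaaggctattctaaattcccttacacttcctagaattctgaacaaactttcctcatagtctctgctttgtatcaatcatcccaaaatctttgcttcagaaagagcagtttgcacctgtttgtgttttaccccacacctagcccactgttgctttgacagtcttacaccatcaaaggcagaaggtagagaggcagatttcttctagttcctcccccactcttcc
Lck: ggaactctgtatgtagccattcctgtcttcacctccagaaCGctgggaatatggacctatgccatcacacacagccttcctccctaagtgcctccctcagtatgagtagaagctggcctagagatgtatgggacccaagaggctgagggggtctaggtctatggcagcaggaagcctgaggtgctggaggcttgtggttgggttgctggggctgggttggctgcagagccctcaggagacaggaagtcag
Cd79a: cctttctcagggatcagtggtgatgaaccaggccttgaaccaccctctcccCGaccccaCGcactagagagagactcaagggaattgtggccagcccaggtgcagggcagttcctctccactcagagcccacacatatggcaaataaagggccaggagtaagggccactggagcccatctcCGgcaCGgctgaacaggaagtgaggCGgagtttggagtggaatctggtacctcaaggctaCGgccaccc
Cd37: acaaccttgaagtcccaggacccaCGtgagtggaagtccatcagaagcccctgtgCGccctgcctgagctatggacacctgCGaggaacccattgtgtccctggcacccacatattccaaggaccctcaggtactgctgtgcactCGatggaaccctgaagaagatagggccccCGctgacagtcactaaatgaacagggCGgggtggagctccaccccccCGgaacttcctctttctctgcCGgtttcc
Coro1a: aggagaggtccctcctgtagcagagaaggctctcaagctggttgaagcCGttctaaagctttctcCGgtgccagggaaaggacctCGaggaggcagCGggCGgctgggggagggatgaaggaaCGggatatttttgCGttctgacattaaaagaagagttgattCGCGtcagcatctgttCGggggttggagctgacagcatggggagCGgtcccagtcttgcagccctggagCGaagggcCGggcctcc
The Cd3d sequence has 0 CpGs, that of Lck 1, that of Cd79a 6, that of Cd37 8 and that of Coro1a 13. Over the 22 members with such a sequence the median was 4.5 CpGs, and 86.4% had 8 or fewer. Over the first promoter of 25748 autosomal genes the median was 6, and 58.6% had 8 or fewer.

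Levels were first compared at gene starts, since these regions have the same length at every gene. A start region is the 9 windows within 1 kb of the annotated start, and its level is given as CPM, counts scaled to a common library size. For the 13 members without an annotated start, the gene end with the higher CpG density was used: Cd4, Cd8b1, Cd69, Cd2 and Cd28 among T cell genes, Cd79b, Ms4a1, Blk and Cxcr5 among B cell genes, and Csf1r, Spi1, Tyrobp and Cd14 among myeloid genes. Such an end can be the 3′ end of the gene. Median levels over the 46 libraries are given as descriptions. They measure captured DNA, not a percent of methylated cytosines.

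T cell genes had a median start level of 1.69 CPM, with Cd8a, a coreceptor of cytotoxic T cells, highest at 3.51 CPM. Lck, the kinase that starts receptor signalling, had 3.46 CPM, and the adhesion receptor Cd2 had 2.97 CPM. Zap70, the kinase recruited to the CD3 chains, had 2.92 CPM. Cd8b1, the partner of Cd8a, had 2.55 CPM, and the receptor Cd5 had 1.97 CPM. The CD3 chains differed among themselves. Cd3e had 1.41 CPM, whereas Cd3d and Cd3g each had 0.711 CPM. The activation marker Cd69 had 1.26 CPM, the coreceptor of helper T cells Cd4 had 1.097 CPM, and the costimulatory receptor Cd28 had 0.786 CPM.

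B cell genes spanned the widest range, from 0.363 CPM at Bank1, a signalling scaffold, to 4.03 CPM at Cd79a, the signalling chain of the B cell receptor. Fcer2a, an IgE receptor, had 2.90 CPM, the tetraspanin Cd37 had 2.54 CPM, and the inhibitory receptor Cd22 had 1.98 CPM. Pou2af1, a coactivator of B cell transcription, had 1.92 CPM and Ebf1, a factor that specifies the lineage, had 1.79 CPM. Cd79b, the partner of Cd79a, had 1.47 CPM, the membrane protein Ms4a1 had 1.34 CPM, and the plasma cell receptor Tnfrsf17 had 1.20 CPM. The chemokine receptor Cxcr5 had 1.02 CPM and the kinase Blk 0.992 CPM. The complement receptor Cr2 had 0.670 CPM and the adaptor Blnk 0.647 CPM.

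Among myeloid and pan-leukocyte genes, the growth factor receptor Csf1r had 3.68 CPM and the integrin Itgam 3.06 CPM. The adaptor Tyrobp had 2.43 CPM and the transcription factor Spi1 2.20 CPM. Cd14, a receptor for bacterial lipopolysaccharide, had 1.32 CPM, the leukocyte phosphatase Ptprc 1.29 CPM, and the macrophage protein Cd68 1.15 CPM. The lysozyme gene Lyz2 had 0.646 CPM and Coro1a, an actin-binding protein of leukocytes, had 0.536 CPM. Neighbours in these orders overlapped: Coro1a ranged from 0.0946 to 0.839 CPM over the 46 libraries, and Cd79a from 2.27 to 5.17 CPM. The ranges of adenomas, normal mucosa and wild type mucosa overlapped at each of the 35 genes.

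**Figure D1:**
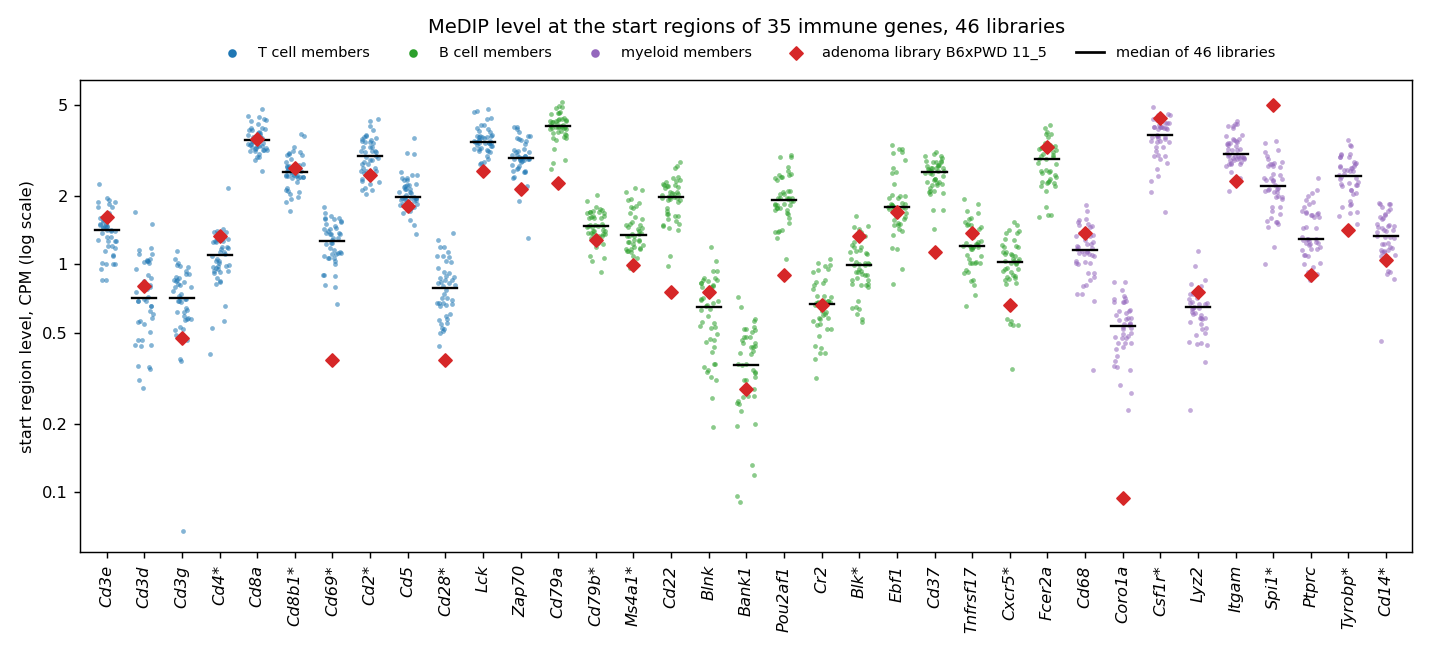
Start region level in CPM (log axis) of each of the 35 genes, with 1 point per MeDIP library coloured by gene list, a line at the median of the 46 libraries and a red diamond for the adenoma library B6xPWD 11_5; an asterisk marks a gene shown at its CpG-rich end. Cd79a, Csf1r, Cd8a and Lck have the highest medians, and the diamond is the lowest point at Coro1a (0.0946 CPM) and the highest at Spi1 (5.01 CPM).

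The median of all 35 members was 1.41 CPM, and 34 of the 35 were above the median of all 20661 genes, 0.457 CPM. The exception was Bank1. At 23 of the 35 the median was above the level of the same region in the 1 input library. The rest included Cd3d, Cd4, Cd68, Blnk and Coro1a, with 0.929, 1.99, 1.46, 1.59 and 1.73 CPM in the input. These input levels rest on few counts. Member starts were poorer in CpGs than others, with a median deposited CpG density score of 4.11 against 8.67, and 1 member (Ebf1) had a score over 10, against 8872 of all genes. At like CpG density the members' median was above that of all genes in each bin. The bin with a score up to 2 held only 2 members, and that over 10 held 1. With a score over 4 and up to 6, the median was 2.92 CPM over 11 members and 1.47 CPM over all genes. With a score over 6 and up to 10 it was 1.76 CPM over 6 members and 0.607 CPM over all genes. With a score over 2 and up to 4 it was 1.02 CPM over 15 members and 0.884 CPM over all genes. In that bin only 8 of the 15 members were above the median of all genes. Other immune genes had medians of 1.14 CPM (37 T and NK cell genes), 1.04 CPM (26 B and plasma cell genes) and 1.14 CPM (41 myeloid genes). Epithelial genes had 0.591 CPM (38 genes) and stromal and endothelial genes 0.982 CPM (26 genes).

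One library stood apart before any comparison and was singled out after its values were seen. The adenoma library labelled B6xPWD 11_5 was the lowest of the 46 at 9 of the 35 members, and the next, the B6 adenoma 10_2, was lowest at 3. Each library's list level was taken as the median over a list of log2 CPM at the start minus the gene's mean in the 30 libraries of B6, C5 and C5F1. In 11_5 this level was -0.20 for T cell genes, -0.16 for B cell genes and -0.22 for myeloid genes, and -0.18 for all members. The other 2 B6xPWD adenomas had 0.11 (16_6) and 0.04 (18_2) for all members. The genes of the other immune lists were low in 11_5 as well, at -0.34 for T and NK cell genes, -0.25 for B and plasma cell genes and -0.24 for myeloid genes. Epithelial genes went the other way in 11_5, at 0.53, and the median of all genes tested was 0.02.

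**Figure D2:**
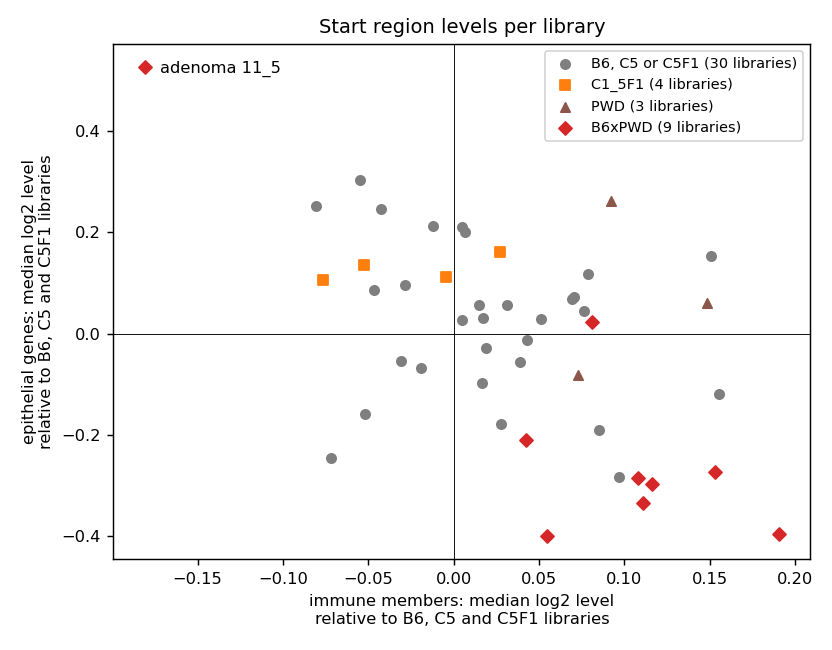
Each point is 1 of 46 MeDIP libraries, with the list level of all immune members on the x axis and that of epithelial genes on the y axis, both as median log2 level relative to the B6, C5 and C5F1 libraries, and with symbols by strain. The B6xPWD adenoma 11_5 lies at -0.18 and 0.53, apart from the 8 other B6xPWD libraries, which are all above 0 on the x axis.

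Set gene by gene beside the 8 other B6xPWD libraries, 11_5 was below all of them at 18 of the 35 members (51.4%) and above all of them at 4 (11.4%). Over all 15963 genes tested, it was below all others at 14.8% and above at 13.8%. The 18 were 6 of 12 T cell genes, 7 of 14 B cell genes and 5 of 9 myeloid genes. Each of the other 8 libraries was the lowest of the 9 at 1 to 5 members. The same held for genes outside the members, where 11_5 was lowest at 19 of 34 T and NK cell genes, 12 of 24 B and plasma cell genes and 15 of 38 myeloid genes, but at 0 of 34 epithelial genes and 6 of 24 stromal and endothelial genes. It was the highest of the 9 at 19 of the 34 epithelial genes, among them Krt7 with 5.11 CPM against 0.338 to 0.927 CPM. No test was made, since the library was picked for these values. The members were chosen with earlier results of these data known, and the other lists come in part from an earlier analysis of them. The counts in these lists are thus no independent support for one another.

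Among B cell genes, Pou2af1 had 0.899 CPM in 11_5, against 2.48 and 2.04 CPM in the other adenomas, 1.94, 2.50 and 2.95 CPM in normal mucosa and 2.41, 2.57 and 3.003 CPM in wild type mucosa of the same strain. Cd37 had 1.14 CPM in 11_5, against 2.57 and 2.72 CPM in the other adenomas, 2.62, 2.64 and 2.82 CPM in normal mucosa and 2.22, 2.52 and 2.91 CPM in wild type mucosa. Cd79a had 2.27 CPM in 11_5 and 3.71 to 4.595 CPM in the 8 others. Library 11_5 thus lay well under 8 libraries that lay close together. Cd22 had 0.757 CPM against 1.45 to 2.20 CPM, and Ms4a1, Cd79b and Cxcr5 were also below the others.

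Among T cell genes, Cd69 had 0.378 CPM in 11_5, against 1.28 and 1.36 CPM in the other adenomas, 1.07, 1.54 and 1.24 CPM in normal mucosa and 1.59, 1.79 and 1.18 CPM in wild type mucosa. Lck had 2.55 CPM against 3.21 to 4.08 CPM, and Zap70 had 2.13 CPM against 2.53 to 3.99 CPM. Cd2, Cd28 and Cd3g were below the others too. At Cd3e, Cd3d, Cd5, Cd8a and Cd8b1, by contrast, 11_5 lay within the range of the others, and at Cd4 it was above them (1.32 CPM against 0.869 to 1.31 CPM).

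Among myeloid genes, Coro1a had 0.0946 CPM in 11_5, from 2 counts, against 0.483 to 0.687 CPM. Tyrobp had 1.42 CPM against 1.68 to 3.30 CPM, and Itgam, Ptprc and Cd14 were also below the others. Spi1 was the largest exception. Its CpG-rich end, chr2:91114759-91116759, had 5.01 CPM in 11_5 against 1.00 to 2.12 CPM, and it was the highest of all 46 libraries there. Lyz2 and Blnk were above the others at 0.757 CPM each, and Cd68, Csf1r and the B cell genes Bank1, Blk, Cr2, Ebf1, Fcer2a and Tnfrsf17 lay within the others' range. Genes above or below the others at starts did not all stay so over the gene and 1 kb on each side. There 11_5 was below the others at Spi1 (36.70 CPM, others' lowest 36.71 CPM) and Blnk (37.5 CPM against 38.6 to 41.9 CPM). It was within their range at Lyz2, Cd4, Cd37, Zap70, Cd28, Cd3g, Itgam and Cd14. The remaining genes below the others at starts were below them there too.

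Exact 95% Poisson limits, which cover counting error only, left 6 of the 35 members (17.1%) whose upper limit in 11_5 was still under the lowest of the 8 others, against 0.940% of all genes tested. These were Cd69 (upper limit 0.746 CPM), Cd79a (3.01 CPM), Cd22 (1.23 CPM), Pou2af1 (1.40 CPM), Cd37 (1.69 CPM) and Coro1a (0.342 CPM). As the library and the members were picked with results of these data known, the 17.1% is a description. In the input DNA of the same sample, the median of the 18 members was 1.19 CPM, equal to the median over all genes tested. Their input counts ran from 5 at Lck (0.664 CPM) to 16 at Cd3g, with 13 at Coro1a and 14 at Cd37. At single genes the input thus rests on few counts in 1 library. Library 11_5 had 6.29% of its counts in CpG-dense windows, within the range of the libraries without the number 16.

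**Figure D3:**
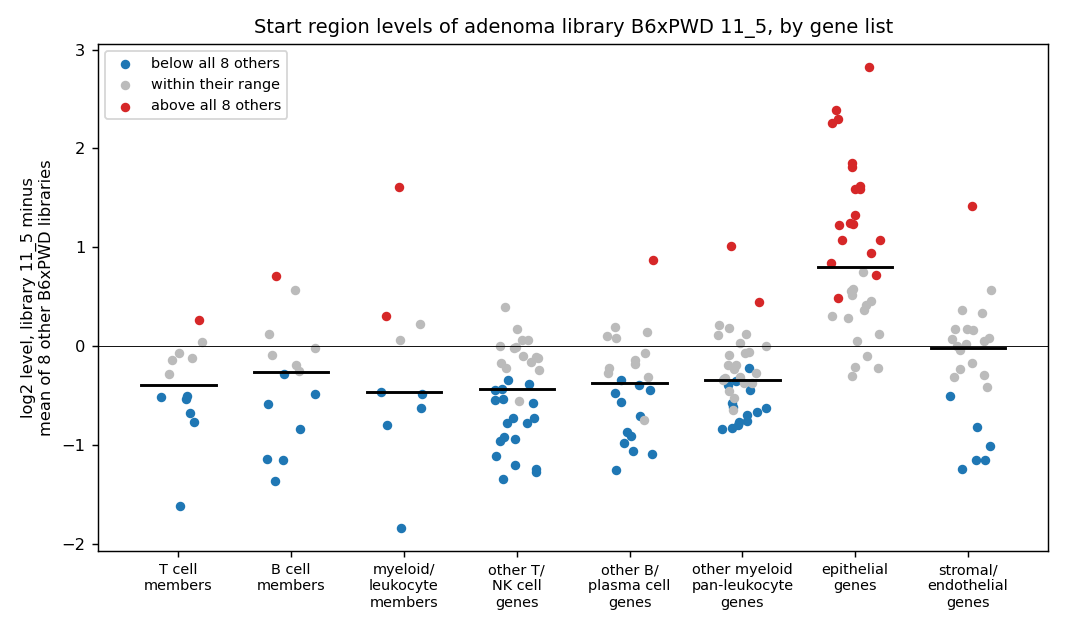
Each point is 1 gene, placed by its list on the x axis and by its log2 start level in library 11_5 minus the mean of the 8 other B6xPWD libraries on the y axis; colours show whether 11_5 was below all 8, within their range or above all 8, and lines are list medians. Over the member lists 18 of 35 genes are below all 8 and 4 above, and of the epithelial genes 0 of 34 are below and 19 above.

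Low single windows of 11_5 lay in part in the same genes. Of 215 member windows with at least 0.5 CPM in 75% of the 9 B6xPWD libraries, 8 (3.72%) had a level under 50% of the window's median with the upper Poisson limit of the count below that median. The share was 0% to 2.33% in the 8 other libraries, and over all autosomal windows it was 1.81% in 11_5. In 11_5 it was 4.25% at epithelial genes and 1.57% at stromal and endothelial genes. It was 1.51% at other T and NK cell genes, 4.82% at other B and plasma cell genes and 2.49% at other myeloid genes. Low windows of 11_5 thus did not separate immune from epithelial genes as the starts did. The window at the start of Lck (chr4:129573501-129573750), which holds the last bases of the Lck sequence printed above and the start itself, had 0.389 CPM in 11_5 and 0.749 to 1.51 CPM in the others. A window just inside Cd37 (chr7:45238501-45238750) had 0.146 CPM against 0.821 to 1.23 CPM. A window before the start of Pou2af1 (chr9:51213001-51213250) had 0.292 CPM against 0.529 to 1.03 CPM, and 1 in Coro1a (chr7:126703001-126703250) had 0.340 CPM against 0.520 to 1.19 CPM. In Spi1 the window chr2:91097501-91097750 had 0.0486 CPM against 0.484 to 0.772 CPM, although the end of that gene was high in the same library. The other 3 windows were in Cd8b1, Ebf1 and Csf1r. Their start regions, which at Cd8b1 and Csf1r are the CpG-rich end, were within the others' range. Thus 4 of the 8 windows lay in genes that were low at the annotated start.

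Within each of 5 strains, adenomas were set against the normal Apc Min mucosa, and the differences were averaged, to see whether leukocyte genes differ between the tissues. At start regions, 0 of the 35 members passed the adjusted threshold of 0.05 in edgeR's quasi-likelihood test, and 1 (Cd68) had an unadjusted p under 0.05. Over all 15963 start regions, 0.0313% were called, and 4.85% had an unadjusted p under 0.05. The median difference over members was -0.01 on the log2 scale, with 15 of 35 above 0, and over all genes it was 0.00. Without library 11_5 the median was -0.00, with 17 of 35 above 0. In B6xPWD alone, which includes 11_5, the median was -0.09, with 12 of 35 above 0.

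Cd68 had the lowest p. Its start (chr11:69665170-69667170) had 0.342, 1.03 and 1.57 CPM as lowest, median and highest of 16 adenomas, and 1.01, 1.17 and 1.83 CPM in 14 normal samples. Adenomas reached lower, but the groups overlapped. The log2 difference was -0.26 ± 0.13 (SE, adjusted p = 0.999, edgeR). Over the gene and 1 kb on each side, Cd68 had 3.80, 4.84 and 6.37 CPM in adenomas and 5.08, 5.84 and 6.93 CPM in normal mucosa, a difference of -0.21 ± 0.07 (unadjusted p = 0.00483, adjusted p = 1.00, edgeR). Wild type mucosa had 4.47, 5.19 and 7.06 CPM there (13 samples), so the adenoma and wild type ranges overlapped too. With each library's CpG-dense share as a covariate, the Cd68 difference was -0.24 and was called (adjusted p = 0.0283, edgeR).

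The other members with the lowest p at starts had adjusted p = 0.999 in edgeR. Cd4 had 0.406, 1.01 and 1.43 CPM in adenomas and 0.818, 1.18 and 2.17 CPM in normal mucosa, a log2 difference of -0.29 ± 0.15 that ranged from -0.42 to -0.16 when the C1_5F1 adenoma 5_4 or 5_2 was left out. Cd69 had a difference of -0.23 ± 0.14, Blnk of -0.32 ± 0.18, Cr2 of 0.24 ± 0.16 and Coro1a of -0.26 ± 0.19. Both directions occurred. Over whole genes, 0 of 35 members were called, against 0.0151% of all 19901 genes, with a median of -0.02 and 15 of 35 above 0. Without 11_5 that median was 0.01, with 18 above 0. Beside Cd68, the lowest p belonged to Cd69 (-0.10 ± 0.10) and Cd3g (0.07 ± 0.07), Pou2af1 (-0.05 ± 0.04) and Tnfrsf17 (0.07 ± 0.06), and Csf1r (-0.06 ± 0.06).

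Of 932 member windows with enough counts to test, 0 were called between adenomas and normal mucosa, against 0.00103% of all 1166299 windows tested. An unadjusted p under 0.05 was found at 39 of them (4.18%), close to the 4.22% over all windows. The difference between strains in the adenoma effect was tested as an interaction. It was called at 0 of 35 members, both at starts and over whole genes, with the lowest unadjusted p at Cd3g (0.0733) and Pou2af1 (0.113).

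Normal mucosa of Apc Min mice and wild type mucosa were compared in the 4 strains that had both. These values share the normal samples with the comparison above. At starts 0 of 35 members were called, and so were 0% of all genes. Cd4 alone had an unadjusted p under 0.05 (0.0393). Wild type samples had 0.525, 1.14 and 1.39 CPM at Cd4 (lowest, median, highest), and the log2 difference was 0.29 ± 0.14. Without the C5F1 wild type sample 12_10A the Cd4 difference was 0.46. Blnk had a difference of 0.27 ± 0.17, Zap70 of -0.17 ± 0.11, Cd68 of 0.17 ± 0.13, Pou2af1 of -0.12 ± 0.13 and Spi1 of 0.13 ± 0.14 (adjusted p = 1.00 for each, edgeR). The median over members was 0.00, with 18 of 35 above 0.

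Over whole genes the same comparison called 0 members and 0% of all genes, with a median of 0.01 and 23 of 35 above 0. Cd68 (0.14 ± 0.07), Cd4 (0.07 ± 0.05), Cd8a (-0.07 ± 0.05), Cd37 (0.11 ± 0.08), Cxcr5 (0.07 ± 0.06) and Itgam (-0.03 ± 0.03) had the lowest p of their lists. Of the member windows 0 were called, as were 0% of all windows, and 16 (1.72%) had an unadjusted p under 0.05, against 2.87% of all windows.

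**Figure D4:**
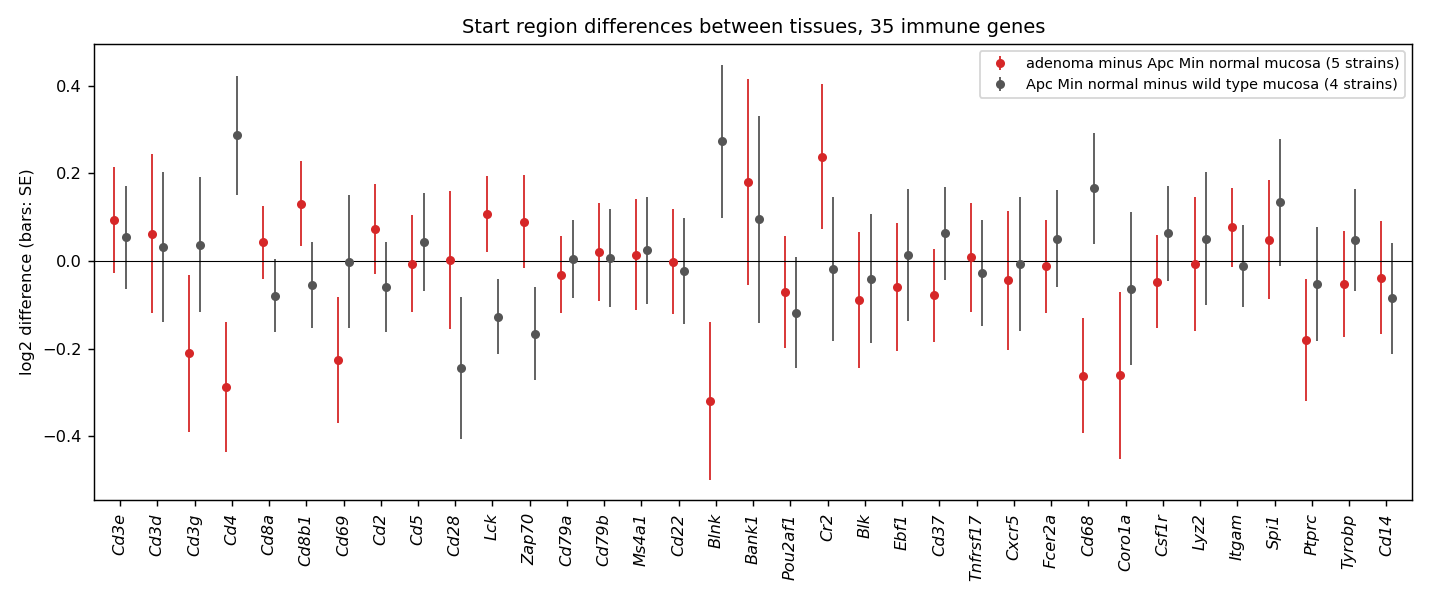
Log2 differences at member start regions, adenoma minus Apc Min normal mucosa and Apc Min normal minus wild type mucosa, with standard errors as bars. No difference passed the adjusted threshold; Cd68 is at -0.26 in the first comparison and Cd4 at 0.29 in the second.

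Libraries that move together were then looked for in the list levels of the 30 libraries of B6, C5 and C5F1. For all members these levels ran from -0.08 to 0.16 in 11 adenomas, from -0.05 to 0.08 in 9 normal samples and from -0.06 to 0.15 in 10 wild type samples, with medians of 0.02, 0.01 and 0.02. The 3 tissues overlapped. T cell genes ran from -0.12 to 0.22 in adenomas, B cell genes from -0.08 to 0.13 and myeloid genes from -0.14 to 0.17. None of these 11 adenomas was as low as 11_5 in T cell, B cell or myeloid genes. The B6 wild type library 16_8 was lower than 11_5 for myeloid genes, at -0.36. For B cell genes the B6 wild type library 4_5 had -0.16, like 11_5. Outside these 30 libraries, the C1_5F1 adenoma 5_4 was lower than 11_5 for B cell genes, at -0.26.

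The 3 member lists moved together weakly at most. Over the 23 of these libraries without the number 16, Pearson's r was 0.20 between T and B cell genes (Spearman's rho 0.16, and r 0.13 without the 2 outermost libraries), 0.30 between B cell and myeloid genes (rho 0.35, r 0.23) and -0.18 between T cell and myeloid genes (rho -0.20, r -0.34). T cell and epithelial genes had r = -0.50 (rho -0.49, r -0.36). These come from 15 relations computed over the 23 libraries and are descriptions with no test. The points share the capture step and differ in depth.

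Windows that are methylated in most libraries and low in a few were counted over the same 30 libraries. Of the member windows, 210 had at least 0.5 CPM in 75% of them (64 at T cell, 102 at B cell and 44 at myeloid genes), and Ebf1 held 38 of these. At 106 of the 210, no library was low, and at 7, the most for any window, 4 libraries were low. 6 members had no such window. In the 7 libraries of label number 16, 3.33% to 11.0% of member windows were low (mean 6.60%), and in the 23 others 0% to 3.81% (mean 1.45%). All autosomal windows outside chromosome 5 behaved alike, with 2.16% to 8.29% (mean 6.10%) and 0.844% to 4.96% (mean 1.72%). The difference was largest at CpG-rich member windows: with a CpG density score of 7 or more, 10.6% were low in the number 16 libraries and 0.960% in the others, and with a score under 3, 4.76% and 2.61%. The part of CpG-rich capture in these counts was not tested. Among the 9 B6xPWD libraries the order was reversed. The 3 with number 16 had a mean of 0.620%, and the others had a higher mean and ran from 0% to 3.72%.

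In these 30 libraries low windows followed the label number in adenomas and normal mucosa, and with an overlap in wild type mucosa. There the C5F1 library 16_7 had 3.33%, under the 3.81% of a library without that number. The B6 wild type library 16_8 had 9.52%, and the 3 other B6 wild type libraries had 0.952% to 1.90%. The highest share was that of the C5 normal library 16_2, with 11.0%, and the highest without the number 16 was that of the C5 wild type library 12_11, with 3.81%. Number 16 libraries were in all 3 tissues, with 2 adenomas, 2 normal and 3 wild type samples among these 30.

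The windows with the most low libraries were described by list. In Spi1, chr2:91096751-91097000 had a median of 1.15 CPM and was low in 4 libraries, all of number 16 (0.570 CPM in B6 wild type, 0.371 CPM in C5F1 adenoma, 0.365 CPM in C5F1 normal and 0.262 CPM in C5 normal). In Zap70, chr1:36771001-36771250, with a CpG density score of 26.7 and a median of 1.63 CPM, was low in 4 of number 16, between 0.475 and 0.785 CPM. The windows of Fcer2a (chr8:3684501-3684750) and Cr2 (chr1:195166001-195166250) were low in 4 libraries each, all of number 16, and that of Coro1a (chr7:126700251-126700500) in 3, all of number 16. A second Zap70 window (chr1:36771751-36772000) and 1 of Csf1r (chr18:61113251-61113500) were low in 3 of number 16 and 1 other.

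Other windows were low in other libraries. In Bank1, chr3:136314001-136314250, with a CpG density score of 0.846, had a median of 1.14 CPM and was low in the B6 adenoma 2_1 (0.393 CPM), the B6 normal sample 4_3 (0.455 CPM) and the B6 wild type samples 4_4 (0.397 CPM) and 4_5 (0.394 CPM). None of these has the number 16, and in the 7 of that number the same window had 0.965 to 1.70 CPM. In Lck, chr4:129568001-129568250 was low in the B6 adenoma 4_1 (0.348 CPM), the B6 normal sample 4_3 (0.354 CPM) and the B6 wild type sample 4_5 (0.394 CPM), with a median of 0.833 CPM. These are 3 tissues of 1 strain, and all have the label number 4, as do 3 of the 4 libraries low at the Bank1 window. Other libraries of number 4 were not low. At the Lck window 4_4 had 0.845 CPM and 4_2 had 0.598 CPM. At the Bank1 window 4_1 had 0.695 CPM and 4_2 had 0.761 CPM. All libraries of number 4 are of B6.

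**Figure D5:**
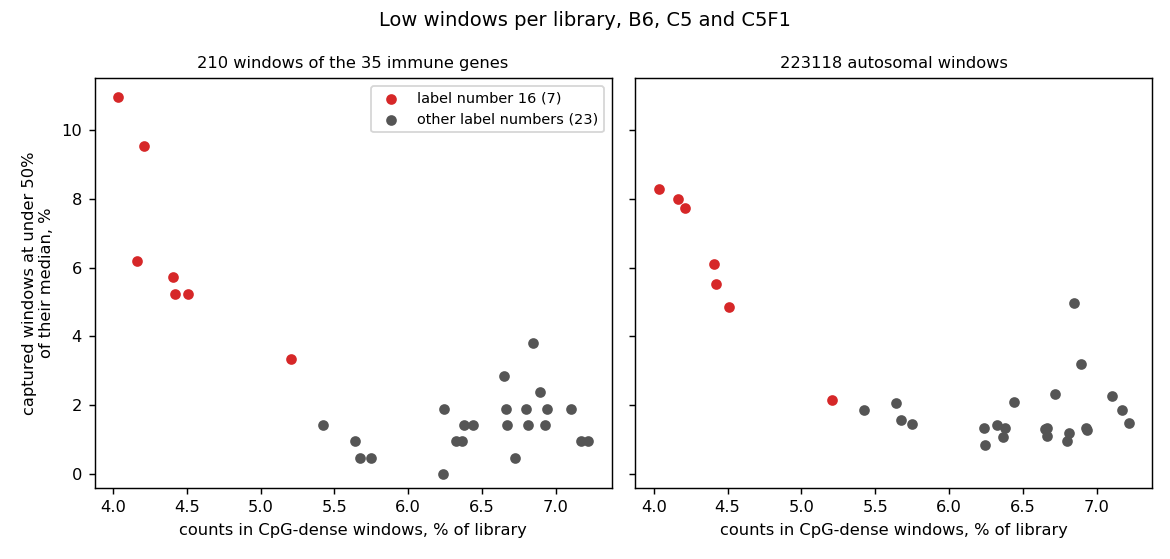
Percent of captured windows that were low (y axis) against the percent of a library's counts in CpG-dense windows (x axis). Each point is 1 of the 30 B6, C5 and C5F1 libraries. The left panel shows 210 windows of the 35 genes and the right panel 223118 autosomal windows outside chromosome 5. The 7 libraries of label number 16 (red) hold 3.33% to 11.0% at the members, and the 23 others (grey) 0% to 3.81%.

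PWD and B6 wild type mucosa were compared to see which of these genes differ with the genome of the mouse. A sequence that is missing from PWD, lacks CpGs there or aligns badly to mm10 gives fewer PWD counts too, and these cannot be told apart from methylation here. The PWD samples have the label numbers 11, 11 and 16 and the B6 samples 4, 4, 10 and 16, so number 16 alone has both strains, with 1 library each. Strain and label number are thus largely confounded. At starts 1 of 35 members was called, against 10.6% of all genes.

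Cd3d, a chain of the T cell receptor complex, rose in PWD at its start (chr9:44980786-44982786). The 4 B6 samples had 0.625, 0.690, 0.754 and 0.444 CPM, and the 3 PWD samples had 1.70, 0.897 and 1.497 CPM. Each PWD value was above every B6 value. The log2 difference was 1.15 ± 0.29 (adjusted p = 0.00323, edgeR). Without the PWD sample 11_1 it was 0.96 and was not called (adjusted p = 0.0605, edgeR). With the label number as a factor it was 1.13 and was not called (adjusted p = 0.108, edgeR). B6xPWD wild type mucosa lay between, at 0.995 ± 0.148 CPM (SD, n = 3). The 250 bases before this start, printed above, hold 0 CpGs.

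Of the other members at starts, Itgam had 2.82 ± 0.297 CPM in B6 (SD, n = 4) and 3.85 ± 0.310 CPM in PWD (n = 3), a log2 difference of 0.45 ± 0.17 (adjusted p = 0.0767, edgeR). Bank1 had a difference of 0.97 ± 0.41, Blnk of 0.64 ± 0.30, Cd14 of 0.58 ± 0.23 and Cd5 of -0.46 ± 0.21, none of them called. The Cd5 difference includes the B6 sample 10_1, at 3.08 CPM against 2.06 to 2.21 CPM in the 3 others. The median over members was 0.18, with 24 of 35 above 0, and over all genes it was -0.01. Without the B6 sample 16_8 the members' median was 0.099, and without all libraries of number 16 it was 0.097.

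Over whole genes 3 of 35 members were called, against 9.67% of all genes. Blk, a kinase of B cells, fell in PWD. It had 29.1, 23.6, 24.9 and 27.9 CPM in B6 and 22.4, 22.3 and 21.8 CPM in PWD, a log2 difference of -0.25 ± 0.07 (adjusted p = 0.0173, edgeR). Cd69 rose, with 3.38, 4.15, 2.43 and 2.82 CPM in B6 and 4.03, 4.61 and 5.22 CPM in PWD, a difference of 0.53 ± 0.16 (adjusted p = 0.0310, edgeR); the B6 sample 16_8 was above the lowest PWD sample. Ms4a1 rose as well, with 8.44, 9.47, 7.18 and 8.66 CPM in B6 and 9.95, 11.4 and 11.0 CPM in PWD, a difference of 0.35 ± 0.11 (adjusted p = 0.0311, edgeR). At Blk and Ms4a1 the groups did not overlap. All 3 calls were lost without the PWD sample 16_9. Without the B6 samples 4_4 or 4_5 or the PWD sample 11_2, 1 call was left. With the label number as a factor none of the 3 was called (Blk -0.03), although 6 other members were. Cd5 (-0.21 ± 0.09), Coro1a (0.27 ± 0.23) and Csf1r (-0.11 ± 0.11) were not called.

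Single windows differed far more often. Of the 932 member windows tested, 188 were called (20.2%), 77 higher and 111 lower in PWD, against 20.8% of all windows. By list these were 38 of 205 windows at T cell genes (18.5%), 116 of 524 at B cell genes (22.1%) and 34 of 203 at myeloid genes (16.7%). The members' share was near that of all windows. Ebf1 held 51 of the called windows, Bank1 24, Blnk 15, Blk 12 and Zap70 11. With the label number as a factor 107 were called, and with a minimum count of 20 in the filter 63.

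Among windows higher in PWD, the lowest p was in Ms4a1 (chr19:11253251-11253500). It had 0.135 ± 0.0918 CPM in B6 (SD, n = 4) and 1.40 ± 0.354 CPM in PWD (n = 3), a log2 difference of 3.28 ± 0.38 (adjusted p = 2.42e-10, edgeR). The 3 PWD samples had 1.13, 1.80 and 1.28 CPM, and the highest B6 sample had 0.260 CPM. Next were windows in Cxcr5 (chr9:44516251-44516500), with a difference of 1.87, Blk (chr14:63401001-63401250), with 2.18, Ptprc (chr1:138098251-138098500), with 2.65, and Csf1r (chr18:61115751-61116000), with 4.02. At Csf1r, 3 of the 4 B6 samples had 0 CPM, so the fitted difference is no measure of size there, and the 3 PWD samples had 0.505, 0.647 and 0.813 CPM.

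Among windows lower in PWD, that of Cd4 (chr6:124882001-124882250) had 0.863 ± 0.217 CPM in B6 and 0.0580 ± 0.0299 CPM in PWD, a log2 difference of -3.81 ± 0.52 (adjusted p = 2.69e-08, edgeR). Windows in Blk (chr14:63379751-63380000) and Bank1 (chr3:136118251-136118500) had differences of -3.33 and -3.004. A pair of windows in Blnk, 250 bp apart (chr19:40952001-40952250 and chr19:40952501-40952750), had -3.25 and -3.03. Each of these 10 windows stayed under the p threshold of the full fit when any of the 7 samples was left out. Blk held 1 window of each kind.

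The F1 lay between its parents. Summed over the 77 windows higher in PWD, the level was 20.7 ± 0.826 CPM in B6 wild type mucosa (SD, n = 4), 38.5 ± 1.88 CPM in B6xPWD (n = 3) and 57.0 ± 2.09 CPM in PWD (n = 3). Over the 111 windows lower in PWD it was 69.5 ± 3.39, 45.0 ± 1.51 and 20.4 ± 0.626 CPM. The parental values chose these windows, so their difference is a description. The Apc Min samples of B6xPWD, which the choice did not use, had 35.6 to 39.9 CPM and 42.6 to 48.4 CPM in the 2 sets, and the Apc Min samples of B6 21.03 to 27.6 CPM and 64.5 to 70.4 CPM. These ranges did not overlap. C5 and C5F1, whose members lie on B6 chromosomes, had 22.01 to 29.2 CPM and 61.1 to 69.7 CPM.

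In C1_5F1, the 9 windows lower in PWD on chromosome 1 had 3.90 to 8.86 CPM summed in 4 libraries, against 6.97 to 8.86 CPM in 8 Apc Min libraries of B6 and 4.16 to 6.03 CPM in 6 of B6xPWD, and so overlapped both. The 7 windows higher in PWD on chromosome 1 had 1.59 to 1.99 CPM in C1_5F1, within the B6 range of 1.52 to 2.32 CPM and below the B6xPWD range of 2.48 to 3.01 CPM. The 102 windows lower in PWD on other chromosomes had 53.5 to 56.9 CPM in C1_5F1 and 56.0 to 62.2 CPM in B6. At the single Ptprc window on chromosome 1, which is 1 of these 7, the C1_5F1 adenomas had 0.556 ± 0.0413 CPM (SD, n = 2) and the normal samples 0.446 ± 0.119 CPM (n = 2). Of the B6 Apc Min samples, the 5 adenomas had 0.146 ± 0.124 CPM (SD) and the 3 normal samples 0.140 ± 0.0280 CPM.

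Other lists of lineage genes were counted in the same fits. Between adenomas and normal mucosa 0 genes of any of them were called at starts. The lowest p among other T and NK cell genes (34 tested, median -0.01) belonged to Icos (-0.67 ± 0.16) and Il7r (-0.43 ± 0.18), and among other B and plasma cell genes (24 tested, median -0.00) to Pik3ap1 (0.86 ± 0.22) and Ltb (-0.48 ± 0.14). Icos had an adjusted p = 0.117 and Pik3ap1 an adjusted p = 0.164 (edgeR). Among other myeloid genes (38 tested, median 0.00) these were Lcp1 and Itgax, among epithelial genes (34 tested, median 0.04) Ezr and Fabp1, and among stromal and endothelial genes (24 tested, median 0.05) Pdgfrb and Col1a2.

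Between Apc Min normal and wild type mucosa 0 genes of these lists were called either, with the lowest p at Il7r and Ubash3a, Spib and Fcrla, Lcp1 and Rac2, Krt19 and Prss8, and Cnn1 and Pdgfrb. Il7r had a difference of 0.42 ± 0.18, and Lcp1 of 0.68 ± 0.33. Between PWD and B6 at starts, 1 of 34 other T and NK cell genes was called (Icos, -1.49 ± 0.32, with Sh2d2a next) and 0 of 24 B and plasma cell genes. Of 38 other myeloid genes 5 were called, 2 higher and 3 lower, with Itgal (-1.08 ± 0.23) and Cx3cr1 (0.91 ± 0.21) lowest in p. Of 34 epithelial genes 1 was called (Cdhr2, -1.24 ± 0.26, with Cdh17 next), and of 24 stromal and endothelial genes 1 (Col6a2, -1.29 ± 0.29, with Pecam1 next).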

How the data were processed

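Methylated DNA of 46 samples and 1 input DNA were measured as read counts per 250 bp window. The authors deposited these counts unnormalized, and the submitters' processing notes name BWA and mm10 (version and parameters not given in the sources used here), and they deposited a CpG density score per window whose scale is not stated. Windows were assigned to genes by RefSeq positions on GRCm38.p6 and summed over start regions (1 kb on either side) and gene regions (body and 1 kb on each side). edgeR 4.0.16 in R 4.3.3 (limma 3.58.1) fitted 1 quasi-likelihood model of 15 groups to all 46 libraries, with TMM scaling, filterByExpr at a minimum count of 10 and Benjamini-Hochberg adjustment at 0.05 over all regions or windows tested, and was tested on simulated data. Each standard error is the size of the log2 difference over the root of its F statistic. List levels used log2 CPM with a prior count of 2. Poisson limits are exact at 95% and cover counting error only. Alternatives were RLE scaling, DESeq2 1.42.0, other filters and region widths, the label number as a factor, a CpG-dense covariate (windows with a score of at least 10), strain subsets and each library left out; leaving out number 16 and the comparisons of 11_5 were added after seeing the data.

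The members and lists were chosen with earlier results of these data known, and the other gene lists come in part from an earlier analysis of them. For each comparison and list the text names the 2 members with the lowest p at starts and over genes, up to 5 called windows per direction, and the 3 windows per list with most low libraries. Sample 11_6 is labelled normal mucosa on its MeDIP record and wild type on its input record; the MeDIP record was followed. Of the 54 samples in the labels, the C5F1 wild type sample 12_10 (a sample apart from 12_10A, which was used) and 6 further inputs were not analysed here.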

Additional observations from a re-analysis of the deposited data

Results flagged for a closer look

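In groups of 4 and 5 samples, 80 checks of member values for a sample far from its group found 4, where chance gives about 1 in 20. The Cd5 start had 3.59 CPM in the B6 adenoma 10_2, against 1.79 to 2.25 CPM in the other adenomas of that strain. The Cd5 start also had 3.08 CPM in the B6 wild type sample 10_1, against 2.06 to 2.21 CPM in the others. The Lck start had 4.67 CPM in the same sample 10_1, against 3.17 to 3.35 CPM. The percent of low member windows was 9.52 in the B6 wild type sample 16_8, against 0.952 to 1.90 in the others.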

How the results depend on the processing

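No paired analysis was possible because no replicate number (such as 10_2) occurs in 2 of the groups compared. The first part of that number recurs and was fitted as a factor. Counting depth limits single windows most, and a count of 0 called members between tissues in edgeR does not show that leukocyte content was equal. Between tissues, 0 members were called at starts and 0 windows under each alternative run, and in each refit with 1 library left out. Over genes, 1 member (Cd68) was called between adenomas and normal mucosa with the CpG-dense covariate. Between PWD and B6, 1 member was called at starts. This was 2 with the label number as a factor, 4 with the CpG-dense covariate, 4 with regions of 500 bp on either side, 2 without number 16, and 0 to 2 with 1 library left out. Over genes, 3 were called, 6 with the factor, 14 with the covariate and 0 to 3 with 1 library left out. The number of member windows called was 188, and in separate fits of all windows 107 with the factor and 63 with a minimum count of 20. With 1 library left out it was 152 to 173. Left-out refits of windows covered the member windows alone and kept the spread estimates and the p threshold of the full fit. Their counts are therefore not directly comparable with the 107 and 63. Which windows were shared was not counted. The cause was not tested. Low member windows under 33% of the median averaged 1.63% in number 16 libraries and 0.0828% in others. Under 50% of the median, as in the report, but over the 9 B6xPWD libraries alone, the means were 0.620% and 1.78%.

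Signs reversed at the start of Blnk in PWD against B6 (-0.20 with the factor), over Csf1r in the same comparison (0.088 with the factor), over Cd69 (0.025) and Pou2af1 (0.017) between adenomas and normal mucosa in B6, C5 and C5F1 only, and at the start of Pou2af1 between Apc Min and wild type mucosa (0.032 without number 16). None of these 5 was called in the model of all libraries. Coro1a over its gene was called in PWD with the factor (0.87, adjusted p = 0.0192, edgeR).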
